A study of Macaca mulatta with 36 samples.

Results

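CXCL10, CCL2, CCL8 and CCL3 encode small secreted proteins, chemokines, that draw leukocytes into tissue. They were followed here in the hippocampus of rhesus macaques with encephalitis caused by simian immunodeficiency virus (SIV), abbreviated SIVE, and of uninfected controls. Members were all probe sets of the array whose single gene symbol is one of these 4 names, which gave 9 of the 52707 probe sets tested: 1 for CXCL10, 1 for CCL2, 3 for CCL8 and 4 for CCL3. A probe set is a group of short probes read as 1 value, and 0 probe sets that carry several symbols hold one of these names.

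The study measured hippocampal total RNA of 18 male animals on Affymetrix arrays, 2 arrays per animal. The 9 SIVE animals comprise 4 that the labels mark as having had an anti-CD8 treatment, all 6 years old, and 5 untreated ones of 2 to 5 years. The 9 Control animals comprise 2 treated ones of 3 and 4 years and 7 untreated ones of 3 to 8 years. An anti-CD8 antibody is used in macaques to deplete CD8 T cells, and how it was dosed is not stated in the labels. No infected animals without encephalitis are among the samples analysed here, so infection and encephalitis cannot be told apart. Within SIVE, age and anti-CD8 treatment cannot be told apart either.

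As background, CXCL10 is induced by interferons and acts through the receptor CXCR3, which activated T cells and NK cells carry. CCL2 and CCL8 belong to the monocyte chemoattractant proteins and act through CCR2, with CCL8 using further receptors, while CCL3, the macrophage inflammatory protein MIP-1α, acts on monocytes and macrophages through receptors that include CCR1. CCL2 in cerebrospinal fluid is a known correlate of encephalitis in infected macaques. In the RefSeq gene table CCL2 and CCL8 are near neighbours on 1 chromosome, with 2 coding genes, CCL7 and CCL11, between them. CCL3 lies on the same chromosome, 37 coding genes away from CCL2, and CXCL10 on another.

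The deposited values are log2 levels made with RMA, the array method that corrects background, normalizes between arrays and summarises each probe set. The median probe set lay at 5.65. The duplicate arrays were averaged, so each value below is 1 animal, and the number of animals limits the precision. Of the markers of hippocampal neurons measured, PROX1, the transcription factor of dentate granule cells, was at 8.44 ± 0.21 in SIVE and 8.62 ± 0.24 in Control (SD, n = 9 each). ZBTB20 was at 10.55 in SIVE and 10.40 in Control, and C1QL2 and MEIS2 also lay above the median probe set. TDO2, at 3.10 in SIVE and 3.08 in Control, and LCT, at 4.30 in SIVE and 4.29 in Control, lay below it. Of the 6 measured hippocampal genes, 0 passed the test below. SIVE 2, SIVE 3 and Control 8, all treated, had the highest 3′ minus 5′ signal, averaged over 3 housekeeping transcripts, which is high where RNA is shortened. It was 0.96 to 1.45 (log2) in these 3 animals and 0.10 to 0.47 in the other 15.

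All 4 chemokine genes were higher in SIVE. Differences were tested with limma on the animal means, and p-values were adjusted (Benjamini-Hochberg) over all 52707 probe sets with a threshold of 0.05. Of the 9 probe sets, 7 were called higher and 0 lower, and every gene had a called probe set; 3.63% of all probe sets were called higher. In 5 of the 9, at least 1 per gene, every SIVE animal lay above every Control animal, which held for 1.2% of all probe sets. These chemokines were named with results of these data known, so the counts describe them and are not independent evidence.

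CXCL10, read by a single probe set, had levels of 8.41 to 11.87 in SIVE animals, with a median of 9.71, against 4.38 to 5.00 in Control animals, with a median of 4.76. The lowest SIVE animal stood 3.41 above the highest Control animal, while the whole Control range was 0.63. The difference was 5.19 ± 0.34 (SE; limma adjusted p = 2.67e-09), the fourth largest rise of all probe sets. Its Control levels lay at percentile 30.8 of probe sets and its SIVE levels at percentile 96.2.

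CCL2, read by MmuSTS.3317.1.S1_at, had levels of 7.82 to 9.89 in SIVE animals, median 8.43, against 3.72 to 4.53 in Control animals, median 4.11. The groups were 3.29 apart at their nearest animals. The difference was 4.43 ± 0.22 (limma adjusted p = 5.26e-11). Its Control level was at percentile 19.2 of probe sets, where a dim signal can make a fold change too small.

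CCL8 was read by 3 probe sets, which differed in their results. By MmugDNA.3158.1.S1_at, levels were 9.15 to 10.75 in SIVE animals, median 9.43, against 4.74 to 5.73 in Control animals, median 5.26. That difference was 4.39 ± 0.21 (limma adjusted p = 2.19e-11), with 3.42 between the nearest animals of the groups. The dimmest of the 3 gave 7.57 to 9.03 in SIVE animals, against 3.67 to 4.40 in Control animals, a difference of 3.99 ± 0.18 (limma adjusted p = 1.07e-11). Over the 9 SIVE animals these brightest and dimmest probe sets moved together, with a correlation of 0.93.

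The CCL8 probe set between them in brightness, MmugDNA.16210.1.S1_at, gave a weak difference that did not pass. Its levels were 7.20 to 8.05 in SIVE animals, median 7.42, against 6.87 to 7.70 in Control animals, median 7.08. It differed by 0.40 ± 0.12 (limma adjusted p = 0.0661), and 3 of 9 SIVE animals lay above all Control animals. It was bright in Control animals, at percentile 73.5 of probe sets, and Control 8, of high 3′ signal, had the highest Control value. Without Control 8 the difference was 0.47 and passed (limma adjusted p = 0.0118), as it did with array weights, with arrays centred on their medians and over 36 arrays (limma adjusted p = 0.0123, 0.0497 and 0.0101). The fit over 36 arrays may count duplicate arrays partly as replicates. In 24 of the 30 alternatives the difference did not pass (limma adjusted p up to 0.119), and only 1 of the 18 fits without 1 animal passed.

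CCL3 rose less, and again its probe sets differed. MmuSTS.3571.1.S1_s_at gave levels of 6.55 to 8.25 in SIVE animals, median 7.65, against 5.17 to 5.76 in Control animals, median 5.42. The difference was 1.94 ± 0.22 (limma adjusted p = 5.8e-06), or 3.83-fold with a 95% confidence interval of 2.80 to 5.23. The SIVE values fell into an upper run of 5 animals from 7.65 to 8.25 and a lower run of 4 from 6.55 to 6.86. Both runs held treated and untreated animals. The treated animals of the upper run were SIVE 2 and SIVE 3, of high 3′ signal, and those of the lower run were SIVE 1 and SIVE 4.

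At the next brightest probe set, CCL3 levels were 5.20 to 5.94 in SIVE animals and 4.98 to 5.34 in Control animals, a difference of 0.45 ± 0.09 (limma adjusted p = 0.00614). At the one after it they were 2.81 to 4.73 in SIVE animals and 2.55 to 2.84 in Control animals, a difference of 0.87 ± 0.20 (limma adjusted p = 0.0112). Each of these had 8 of 9 SIVE animals above all Control animals. The second of them lay at percentile 0.15 of levels in Control, near the lowest signal of the arrays, so the size of its difference is uncertain. The dimmest CCL3 probe set was at 2.84 to 3.17 in SIVE animals and 2.88 to 3.25 in Control animals, a difference of 0.02 ± 0.06 (limma adjusted p = 0.899). That probe set was at percentile 3.09 of levels in SIVE. The brightest CCL3 probe set and the one at 2.81 to 4.73 in SIVE carry the suffix that Affymetrix gives to probes shared by several transcripts, and the one at 5.20 to 5.94 carries the suffix for probes that may bind other sequences. CCL3L1, a near copy of CCL3, has no probe set of its own symbol here, so which copy was read cannot be told apart. Over the SIVE animals the correlation of the brightest CCL3 probe set with the others was 0.89, 0.86 and 0.62, in the order given.

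**Figure D1:**
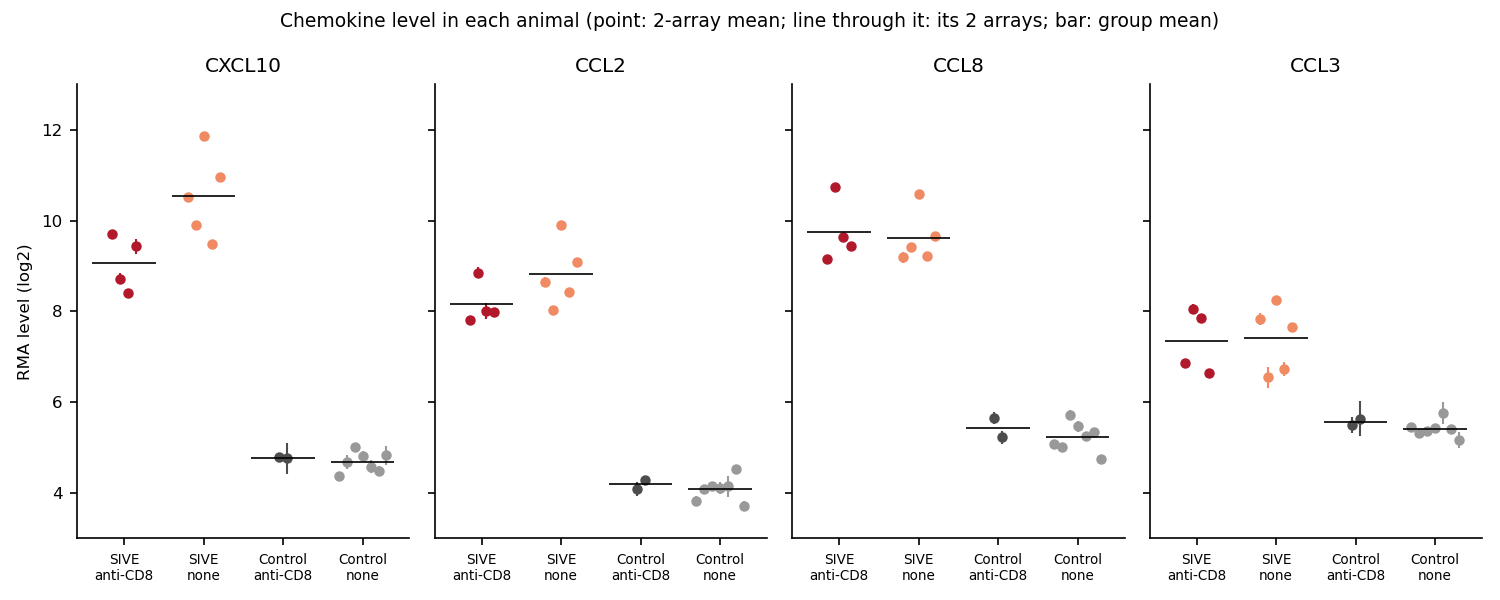
RMA level (log2, vertical axis) of the brightest probe set of CXCL10, CCL2, CCL8 and CCL3, with 1 point per animal, a line through it joining its 2 arrays, and a bar for the mean of each group of animals by anti-CD8 label. Every SIVE animal lies above every Control animal in each panel, and the CXCL10 points of SIVE spread from 8.41 to 11.87.

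At CXCL10, the SIVE animals differed among themselves far more than the Control animals did. CXCL10 had an SD of 1.09 between SIVE animals and 0.19 between Control animals. Among 1941 probe sets of similar SIVE level (within 0.5), the median SD was 0.22, and 99.4% had a smaller SD than CXCL10. Its highest SIVE animal was 11.0 times as high as its lowest on the linear scale, while in Control animals this ratio was 1.54. The SD between the 2 arrays of 1 SIVE animal was 0.12. In Control the SD between the 2 arrays of 1 animal was 0.24. It holds for single arrays, while the SD between animals holds for means of 2 arrays, so these SDs are not directly comparable. How much of the Control spread came from the arrays was not tested.

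The other genes were also spread widely in SIVE. CCL2 had an SD of 0.67 in SIVE and 0.24 in Control, CCL8 (MmugDNA.3158.1.S1_at) of 0.59 in SIVE and 0.31 in Control, and CCL3 (MmuSTS.3571.1.S1_s_at) of 0.68 in SIVE and 0.17 in Control. Of probe sets of similar SIVE level, 95.5%, 94.7% and 94.7% had a smaller SD than these 3. Among probe sets of similar Control level, the Control shares were 80%, 82% and 36%. Not every probe set was spread more widely in SIVE. MmugDNA.16210.1.S1_at of CCL8 had an SD of 0.30 in SIVE and 0.24 in Control, and the dimmest CCL3 probe set of 0.12 in SIVE and 0.13 in Control. The ratio of highest to lowest SIVE animal was 4.22 for CCL2, 3.03 for CCL8 and 3.26 for CCL3.

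SIVE 7, an untreated animal, had the highest CXCL10, CCL2 and CCL3 and the second highest CCL8. SIVE 9, also untreated, was second for CXCL10 and CCL2 and ranked 3 of 9 for CCL8. SIVE 2 was first for CCL8 and second for CCL3, yet eighth of 9 for CXCL10, and SIVE 3 ranked 3 of 9 for CCL3 but last for CXCL10. SIVE 2 and SIVE 3 are the SIVE animals of high 3′ signal, and the part of that signal in their order was not tested.

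Correlations between the 4 genes over the 9 SIVE animals were computed for all 6 pairs, and 4 more were computed with the virus. Exact permutation p-values were two-sided and adjusted over these 10. CXCL10 and CCL2 had r = 0.72 (exact permutation p = 0.029, adjusted p = 0.0725) and rho = 0.57. CCL2 and CCL3 had r = 0.72 (exact permutation p = 0.025, adjusted p = 0.0725) and rho = 0.60, CCL8 and CCL3 r = 0.70 and rho = 0.58, and CCL2 and CCL8 r = 0.69 and rho = 0.63. CXCL10 had r = 0.13 with CCL8 and r = 0.25 with CCL3. None of the 6 passed after adjustment.

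These correlations rested on few animals. Without the 2 animals farthest from the CXCL10 median, SIVE 3 and SIVE 7, the r of CXCL10 with CCL2 was 0.31 and with CCL8 -0.50. Without SIVE 2 and SIVE 3, whose 3′ signal was high, the remaining 7 gave r = 0.94 for CXCL10 with CCL2, 0.84 with CCL8 and 0.93 with CCL3 (exact permutation adjusted p = 0.0265, 0.0456 and 0.0265). Leaving out SIVE 2 alone took CXCL10 and CCL2 past the threshold (r = 0.88, exact permutation adjusted p = 0.0352), leaving out SIVE 3 did so for CCL2 and CCL3 (0.86, 0.0454), and leaving out SIVE 5 for CCL8 and CCL3 (0.84, 0.0236). The 4 treated and 5 untreated animals are too few for a correlation within either set.

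The array also holds 9 probe sets that carry 1 nucleotide accession and a coding sequence number, taken here, from general knowledge, to be those of an SIV genome. The brightest of them in SIVE, that of coding sequence 9, was at 7.53 to 11.22 in SIVE animals, against 3.28 to 4.25 in Control animals. Of the 4 chemokines, CCL2 followed it most closely over the SIVE animals, with r = 0.83 (exact permutation p = 0.00529, adjusted p = 0.0529) and rho = 0.87 (exact permutation p = 0.00451, adjusted p = 0.0451). Without the animals of lowest and highest virus level, SIVE 6 and SIVE 9, r was 0.89. Of the 9 runs that each left out 1 animal, 4 took r past the threshold, those without SIVE 2, SIVE 3, SIVE 5 or SIVE 6, with values of 0.82 to 0.89. The others did not pass (exact permutation adjusted p up to 0.146), and the lowest r of the 9 runs was 0.80.

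CXCL10 had r = 0.40 with that probe set, CCL8 0.55 and CCL3 0.68 (exact permutation adjusted p = 0.365, 0.194 and 0.0775). Whether CCL2 differed from the other 3 in this was not tested.

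**Figure D2:**
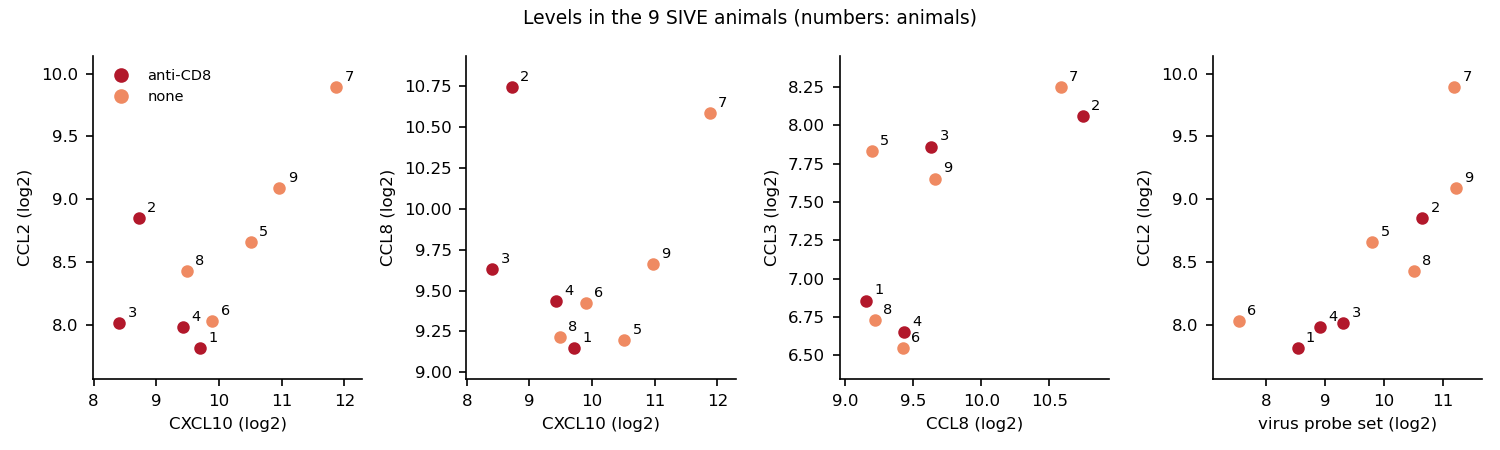
Levels (log2) in the 9 SIVE animals, numbered, with treated and untreated animals in different colours: CCL2 against CXCL10, CCL8 against CXCL10, CCL3 against CCL8, and CCL2 against the virus probe set. SIVE 2 and SIVE 3 stand left of the run of other animals in both CXCL10 panels, and CCL2 is higher where the virus probe set is higher (r = 0.83).

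Among animals not given anti-CD8, 5 of the 9 chemokine probe sets were higher in SIVE (2.34% of all probe sets were called higher), with at least 1 for each gene. CXCL10 was at 9.49, 9.90, 10.51, 10.97 and 11.87 in untreated SIVE animals, against 4.38 to 5.00, median 4.68, in untreated Control animals. The difference was 5.87 ± 0.31 (limma adjusted p = 1.96e-09). CCL2 differed by 4.74, CCL8 by 4.38 and 3.95 at its brightest and dimmest probe sets, and CCL3 by 1.99 at its brightest (limma adjusted p of 0.000291 or less).

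Among animals given anti-CD8, the same 5 probe sets were higher in SIVE (0.844% of all probe sets were called higher). CXCL10 was at 8.41, 8.72, 9.43 and 9.71 in treated SIVE animals, against 4.76 and 4.78 in treated Control animals. The difference was 4.29 ± 0.47 (limma adjusted p = 5.46e-05). CCL2 was at 7.82, 7.98, 8.01 and 8.85 in treated SIVE animals, against 4.09 and 4.29 in treated Control animals, a difference of 3.97. CCL8 differed by 4.30 and 4.09 at those 2 probe sets.

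CCL3 in treated animals was at 6.65, 6.86, 7.86 and 8.06 in SIVE, against 5.50 and 5.64 in Control. Its difference of 1.79 ± 0.42 only just passed (limma adjusted p = 0.0465). Without the 3 animals of high 3′ signal it was 1.12 and did not pass (limma adjusted p = 0.302). It also did not pass in 12 of the 18 fits that each left out 1 animal, SIVE 2, SIVE 3, SIVE 5, SIVE 9 and every Control animal but Control 5 (limma adjusted p up to 0.149).

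**Figure D3:**
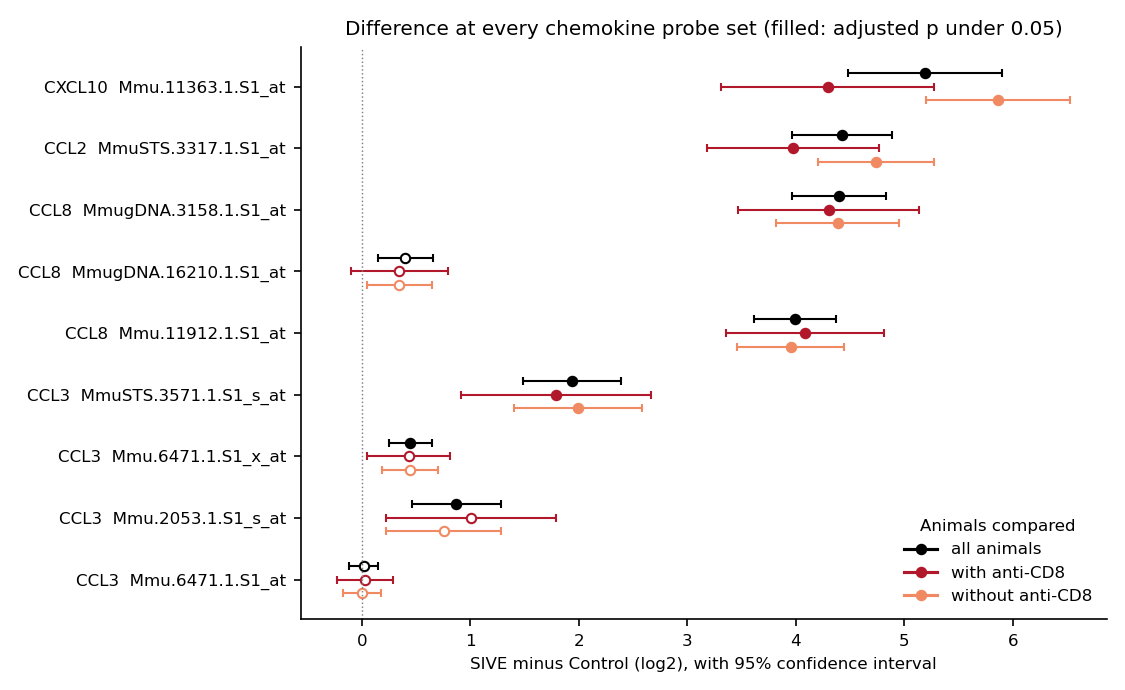
SIVE minus Control difference (log2, horizontal axis) with its 95% confidence interval at each of the 9 chemokine probe sets, over all animals, treated animals and untreated animals, with filled points for an adjusted p under 0.05. CXCL10, CCL2 and the outer pair of CCL8 probe sets lie between 3.95 and 5.87, the brightest CCL3 probe set between 1.79 and 1.99, and the others near or below 1.

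The difference between the 2 SIVE effects passed at 0 of the 9 chemokine probe sets and at 0% of all probe sets. An unadjusted limma p under 0.05 was found at 1 of the 9, that of CXCL10, and at 1481 of all 52707 probe sets. For CXCL10 the effect with anti-CD8 was lower than the effect without it by a log2 value of -1.57, with a 95% confidence interval of -2.76 to -0.39 (limma p = 0.0122, adjusted p = 1.00). The interval for CCL2 ran from -1.72 to 0.19, for CCL8 at MmugDNA.3158.1.S1_at from -1.09 to 0.93, and for CCL3 at MmuSTS.3571.1.S1_s_at from -1.26 to 0.86.

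Within SIVE, CXCL10 averaged 9.07 ± 0.60 in treated animals and 10.55 ± 0.93 in untreated animals (SD, n = 4 and 5). The sets overlapped, since SIVE 1 (treated, 9.71) lay above SIVE 8 (untreated, 9.49). The difference was -1.48 ± 0.36 (SE), with an interval of -2.24 to -0.72 (limma p = 0.000724, adjusted p = 0.304). The fit shares 1 spread with the Control animals, whose CXCL10 SD was 0.19, so this SE, interval and limma p may be too small. The exact permutation p over the 9 SIVE animals, which does not use the Control spread, was 0.0317, where 0.0159 is the smallest possible. The difference passed with array weights (limma adjusted p = 0.0413) and in a fit over 36 arrays that estimates the correlation of duplicates (limma adjusted p = 0.00461). That fit used 1 correlation for all probe sets, and its SE was 0.27 in place of 0.36, so duplicate arrays may count there partly as replicates. Without SIVE 2, SIVE 3 and Control 8 it was -0.98 (limma adjusted p = 1.00). SIVE 2 and SIVE 3 held the 2 lowest CXCL10 values.

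CCL2 averaged 8.16 in treated and 8.82 in untreated SIVE animals, a difference of -0.65 ± 0.29 (limma p = 0.0375, adjusted p = 0.316). Its limma SE also shares the smaller Control spread, and its exact permutation p over the 9 SIVE animals was 0.159. CCL8 at MmugDNA.3158.1.S1_at averaged 9.74 in treated and 9.62 in untreated SIVE animals, with an interval of -0.52 to 0.77 for the difference. CCL3 at MmuSTS.3571.1.S1_s_at averaged 7.36 in treated and 7.40 in untreated SIVE animals, with an interval of -0.72 to 0.63. So 0 of 9 chemokine probe sets passed this comparison, against 0.0019% of all probe sets. An unadjusted limma p under 0.05 was found at 2 of the 9, and at 8079 of all 52707 probe sets. In Control animals, 0 of the 9 passed, against 0% of all probe sets. There, 0 of the 9 had an unadjusted limma p under 0.05, against 8266 of all 52707 probe sets. All 9 differences between treated and untreated Control animals lay between -0.09 and 0.26.

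The genes that act with these chemokines were described from 4 lists, with 1 probe set per gene, the brightest. Over all 14132 genes read this way, 5.72% were higher and 1.51% lower in SIVE, with a median difference of -0.02. Of the 48 genes of these and the cell marker lists with several probe sets, 18 had some that passed and some that did not, so their counts depend on the probe set taken.

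Of 9 measured receptors of these and related chemokines, 2 were higher and 0 lower, with a median difference of -0.01. ACKR1, a decoy receptor of venules and red blood cells that binds CCL2 and other inflammatory chemokines, was at 7.90 ± 0.45 in SIVE and 6.63 ± 0.43 in Control (SD, n = 9 each). It rose by 1.27 ± 0.19 (limma adjusted p = 0.000247), while its other probe set differed by -0.27 and did not pass. ACKR3, an atypical receptor of CXCL11 and CXCL12, rose by 0.61 ± 0.11 (limma adjusted p = 0.00163). The signalling receptors did not pass: CXCR3 was at 5.76 in SIVE and 5.87 in Control, CCR1 at 6.18 in SIVE and 5.93 in Control, and CCR2 at 3.92 in SIVE and 4.01 in Control.

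Of 6 measured ligands related to the 4, 2 were higher and 0 lower, with a median difference of 0.26. CCL5, a ligand of CCR1, rose by 1.09 ± 0.19 at its brightest probe set (limma adjusted p = 0.000954) and by 1.68 at its other one. CCL4L1, a copy of the chemokine CCL4, rose by 0.83 ± 0.15 (limma adjusted p = 0.0016), while its other probe set differed by 0.02 and did not pass. CXCL9, which shares CXCR3 with CXCL10, was at 4.39 in SIVE and 4.02 in Control, a difference of 0.37 ± 0.11 (limma adjusted p = 0.0529).

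CXCL11, the other CXCR3 ligand, depended on the probe set. Its brightest, MmuSTS.3493.1.S1_at, was at 8.70 in SIVE and 8.54 in Control and did not pass (limma adjusted p = 0.32). Its other probe set, picked out after its values were seen, was at 7.96 in SIVE and 4.55 in Control, a rise of 3.41 ± 0.28 (limma adjusted p = 8.86e-08).

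Of 22 measured inducers of these chemokines and their signal, 7 were higher and 0 lower, with a median difference of 0.14. IRF1, a transcription factor of the interferon response that acts on the CXCL10 promoter, was at 7.91 ± 0.57 in SIVE and 5.77 ± 0.22 in Control, a rise of 2.14 ± 0.19 (limma adjusted p = 2.63e-07). CEBPB, a factor of inflammatory gene expression, rose by 0.98 ± 0.11 and the cytokine IL1B by 0.88 ± 0.11 (limma adjusted p = 5.13e-06 and 2.02e-05). IRF7, the regulator of type I interferon genes, rose by 1.61 ± 0.21 (limma adjusted p = 4.23e-05), though its other probe set differed by -0.10 and did not pass. STAT2, NFKB1 and REL also passed. For IRF1, CEBPB, IL1B, IRF7 and REL no SIVE animal overlapped with a Control animal.

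The cytokines IFNG, IFNB1 and TNF did not pass. IFNG was at 3.41 in SIVE and 3.44 in Control, IFNB1 at 3.71 in SIVE and 3.72 in Control, and TNF at 4.59 in SIVE and 4.72 in Control. Each lay below the median probe set level in both groups. IL6 did not pass at its brightest probe set, at 4.31 in SIVE and 4.14 in Control. Its other probe set, at 4.18 in SIVE and 3.73 in Control, rose by 0.45 ± 0.10 (limma adjusted p = 0.00788). IRF9 and RELA have no probe set with that symbol alone and were not analysed here.

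Of 10 genes whose products cut, modify or bind these chemokines or degrade their mRNA, 0 were higher and 0 lower, with a median difference of 0.04. DPP4, the peptidase that trims CXCL10, was at 4.42 in SIVE and 4.56 in Control. MMP2, a protease that cleaves monocyte chemoattractant proteins, differed by 0.41 ± 0.17 (limma adjusted p = 0.171). Of these 10, 0 passed without the 3 animals of high 3′ signal either. ZC3H12A, an RNase induced by CCL2 that degrades cytokine mRNAs, was at 5.95 in SIVE and 5.93 in Control.

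**Figure D4:**
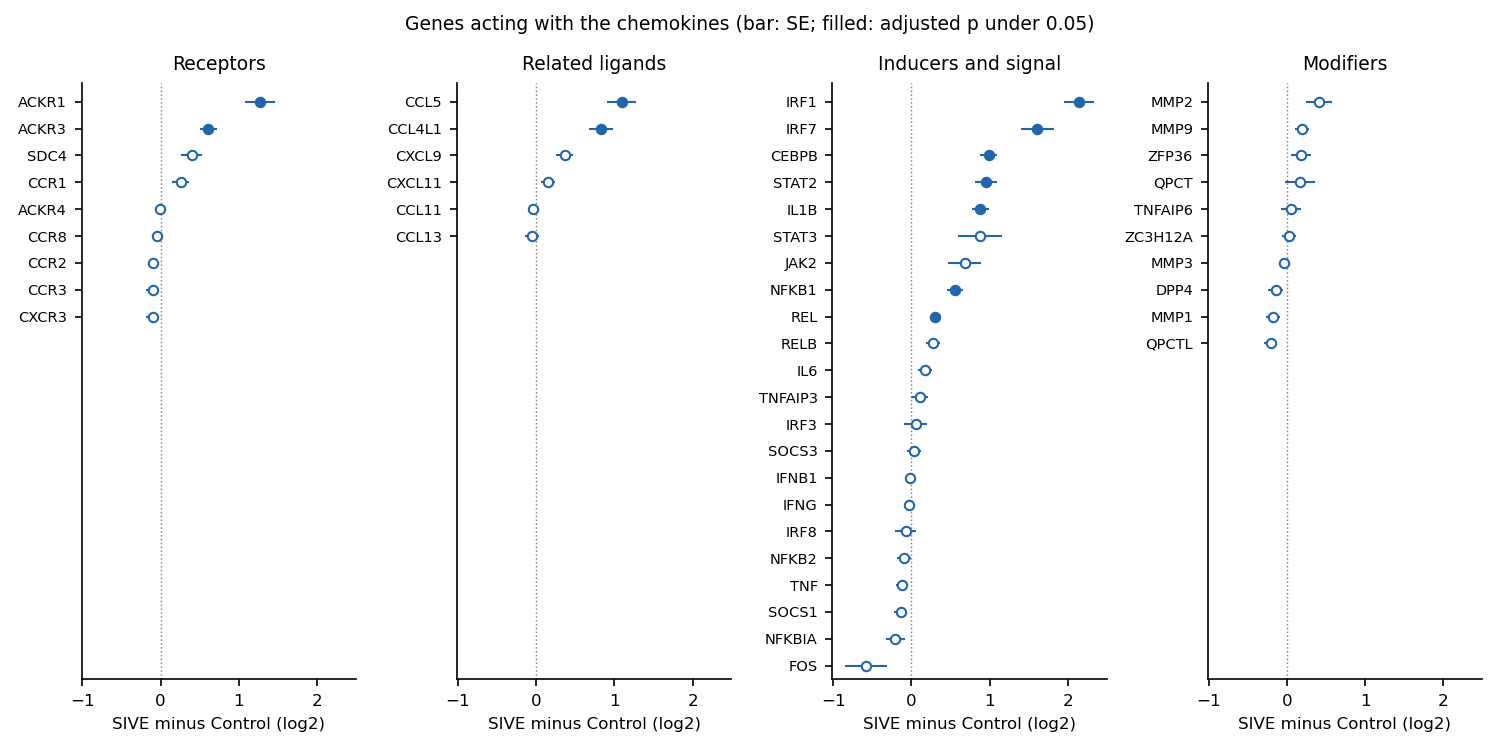
SIVE minus Control difference (log2, horizontal axis) with its SE for each measured receptor, related ligand, inducer and modifier, 1 probe set per gene, with filled points for an adjusted p under 0.05. IRF1 (2.14) and IRF7 (1.61) lie farthest right, and 0 of the 10 modifiers are filled.

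The samples are whole tissue, in which more cells that make a chemokine and more of its RNA per cell cannot be told apart. Of 15 measured monocyte and macrophage markers, 5 were higher and 0 lower, with a median difference of 0.45. LYZ rose by 2.71 ± 0.30, VSIG4 by 2.39 ± 0.26, PTPRC, which all leukocytes share, by 1.52 ± 0.16 and FCGR3 by 0.61 ± 0.10 (limma adjusted p of 0.000369 or less), and CD14 also passed. ITGAM, FCN1 and MRC1 differed by -0.35, -0.18 and -0.14 and did not pass. The summed linear level of the 15 was 3834 to 5371 in SIVE animals and 3210 to 3955 in Control animals. That sum follows the brightest genes, CD68 and MRC1 (9.45 in SIVE, 9.59 in Control), and cannot show whether monocytes and macrophages differed. CCR2 did not pass, nor did CD68 at its brightest probe set, at 10.02 in SIVE and 10.07 in Control. The other CD68 probe set was at 6.69 in SIVE and 5.55 in Control, a rise of 1.14 (limma adjusted p = 9.58e-05).

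Of 12 measured T and NK cell markers, 1 was higher and 0 lower, with a median difference of -0.06. GZMB, the protease granzyme B, rose by 2.36 ± 0.34 (limma adjusted p = 0.000147), and GZMA, CD4, CD8A and CD8B did not pass. GNLY, which encodes the cytotoxic protein granulysin, differed by -0.11 at its brightest probe set and did not pass, but rose by 1.54 at its other one, at 6.10 in SIVE and 4.56 in Control (limma adjusted p = 0.0238). CD8A was at 6.28 in SIVE and 6.40 in Control. CD3D, CD3E, CD3G and CD2 have no probe set with that symbol alone, so T cells were not read by their defining genes. The summed linear level of the 12 was 4970 to 5752 in SIVE animals and 4729 to 5698 in Control animals. NCAM1, at 11.03 in SIVE and 11.05 in Control, was the brightest of them, and GZMB was at 7.16 in SIVE. The sum therefore follows the brightest genes and cannot show whether T and NK cells differed.

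Among resident cells, 2 of 5 microglial markers were higher, SLC2A5 by 0.94 and AIF1 by 0.83, with a median difference of -0.10 over the 5. P2RY12, CX3CR1 and TMEM119 differed by -0.44, -0.15 and -0.10 and did not pass, and among untreated animals 0 of the 5 passed. For astrocytes 2 of 6 were higher, CHI3L1 by 2.18 and GFAP by 0.36, and 1 was lower, SLC1A2 by -0.52. Endothelial cells had 3 of 6 higher, among them VWF (0.98) and PECAM1 (0.83). Of these 6, 0 passed among untreated animals alone and 0 among treated animals alone. TUBB3 of neurons and MBP of oligodendrocytes were lower, by -0.51 and -0.32, the only ones of 3 and 2 measured to pass. AIF1, SLC2A5, GFAP, VWF and TUBB3 each had at least 1 dimmer probe set that did not pass. The part of any of these cells in the chemokine differences was not tested.

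Of 10240 named genes at or above the median level, those whose levels followed each chemokine most closely over the 9 SIVE animals were listed as a description. For CXCL10 they were LOC719212 (r = 0.96), EXD2 (0.95) and SLC39A8 (0.94). For CCL2 they were AGR3 (0.94), IGFBP2 (0.92) and TPM3 (0.91), for CCL8 they were BOC (0.95), IFI30 (0.94) and LPXN (0.94), and for CCL3 they were SLC25A17 (0.93), GART (0.93) and SELENOM (0.91). No gene was among the closest 3 of more than 1 chemokine. The levels share the animal, its arrays and their normalization, and these genes were picked by the correlation itself.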

How the data were processed

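Hippocampal RNA of 18 macaques was read on 36 arrays, 2 per animal. The deposited values are log2 levels made by the authors with RMA, per the submitters' processing notes; no version or probe definitions are named. Arrays give no counts, so no depth applies. Left out were 99 Affymetrix control and 59 reporter probe sets. Gene symbols came from the platform's probe table, and neighbours from RefSeq's gene table.

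The arrays of an animal were averaged and counted as 1 replicate. Whether they read separate tissue pieces is not stated. SIVE was set against Control over all animals, and 5 further comparisons by anti-CD8 label used 1 mean per combination of group and label with a shared spread (limma 3.58.1 in R 4.3.3, lmFit and eBayes, two-sided, Benjamini-Hochberg over 52707 probe sets). Exact permutation tests ran over animals (scipy 1.17.1, numpy 2.4.6, pandas 2.3.3, Python 3.11.15), and figures used matplotlib 3.10.9. The fits were checked on simulated data with known changes.

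Named genes are the chemokines, the 3 genes closest to each over SIVE animals, and from each list up to 4 members of smallest adjusted p and defining members that did not pass. The members and lists were chosen with earlier results of these data known. The alternatives were single arrays per animal, 36 arrays with an estimated correlation, leaving out animals, a replicate block, a filter on dim probe sets, median centring, an intensity trend, array weights, and anti-CD8 or age as a covariate. Same-numbered SIVE and Control animals did not deviate together: of 9 pairs, 0 had a correlation over 0.1 (-0.49 to 0.09), so the numbers do not pair them.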

Additional observations from a re-analysis of the deposited data

Results flagged for a closer look

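Within groups of 4 to 10 animals, the highest or lowest animal was compared with its nearest neighbour by Dixon's test at its 95% level, in 45 groups of animals and probe sets. Chance alone would mark about 1 in 20 groups. It marked 3. For CCL8 at MmugDNA.16210.1.S1_at, Control 8 stood at 7.70 (log2), far from the other Control animals at 6.87 to 7.20. For CCL3, at the probe set at 2.81 to 4.73 in SIVE animals, Control 5 stood at 2.84, far from the other Control animals at 2.55 to 2.66 and from the other untreated Control animals at 2.55 to 2.65. Control 8 is an animal of high 3′ signal, and Control 5 is not.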

How the results depend on the processing

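For SIVE against Control over all animals, and for untreated animals, the calls of the brightest probe set of each gene held in every alternative run. Without single animals, the CXCL10 difference over all animals was 4.94 to 5.37, CCL2 4.25 to 4.51, CCL8 4.26 to 4.46 and CCL3 1.83 to 2.04. Among treated animals the CCL3 call was lost with the second array of each animal alone (1.47, limma adjusted p = 0.063), with array weights (1.95, 0.454), and without SIVE 2, SIVE 3 and Control 8 (1.12, 0.302). Over the 18 fits without 1 animal it was 1.56 to 2.03 (0.0267 to 0.149), and 12 of them lost the call. With the replicate block the calls among treated animals were lost: CXCL10 3.67 (limma adjusted p = 0.379), CCL2 3.97 (0.304), CCL8 3.80 (0.379) and CCL3 1.49 (0.573), leaving 0 of 9 called instead of 5; the block changed no other call of these genes, and 0 of 9 SIVE animals deviated most like the Control animal of their own number. Among untreated animals, 11 alternative values took 1 of 2 dimmer CCL3 probe sets past the threshold. The anti-CD8 difference of CXCL10 in SIVE passed with array weights (-1.64, 0.0413), over 36 arrays (-1.48, 0.00461) and, unadjusted, in the exact permutation test (-1.48, 0.0317), which makes 1 of 9 called instead of 0 in the first 2. Correlation of the virus probe set with CCL2 passed on the first arrays (r = 0.85, adjusted permutation p = 0.0348) and without SIVE 2 and SIVE 3 (0.83, 0.0451), but did not pass in 6 of its 12 alternatives. Without these 2 animals CXCL10 passed with CCL2 (0.94), CCL8 (0.84) and CCL3 (0.93), and CCL2 with CCL8 (0.85) and CCL3 (0.89). Without single animals, r ranged from 0.41 to 0.88 for CXCL10 and CCL2, -0.44 to 0.61 for CXCL10 and CCL8, 0.62 to 0.86 for CCL2 and CCL3, 0.59 to 0.84 for CCL8 and CCL3, and 0.80 to 0.89 for the virus and CCL2. The cause of these changes was not tested. The list counts without SIVE 2, SIVE 3 and Control 8, an alternative chosen after seeing the data, moved by at most 2, as for the inducers with 9 higher instead of 7, and the receptors with 3 instead of 2. Of 1458 alternative values of the 9 probe sets, 108 changed sign, all of differences that passed under neither setting. Only 2 treated Control animals limit the comparisons by label.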
